A study of Arabidopsis thaliana with 24 samples.

Results

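The transcripts of 5 Arabidopsis thaliana regulators of embryo identity were followed through the earliest cells of the embryo: LEC1 (AT1G21970), NF-YB6 (AT5G47670, also called LEC1-LIKE), LEC2 (AT1G28300), FUS3 (AT3G26790) and ABI3 (AT3G24650). They were chosen by name, by their loci, with earlier results of these data known. They are 5 of 32399 loci with a value in the deposited files. The libraries came from embryos of reciprocal crosses between the accessions Col and Ler, so every embryo was a hybrid and the groups differ in which accession was the mother. The apical cell and the basal cell, daughters of the zygote, were taken from embryos of 2 cells with a Col mother and Ler father or a Ler mother and Col father. The embryo proper and the suspensor, which descend mainly from these daughters, were taken from embryos of 32 cells of the same crosses. Each of these 8 groups holds 3 libraries, 24 in all, so a cell type has 6, and no group carries a mutation or a treatment. The labels do not say how many embryos or plants went into a library, and p-values measure the spread between these libraries only. In bulk samples such as these, fewer cells of a type and less RNA per cell cannot be told apart.

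LEC1 and NF-YB6 encode the B subunit of NF-Y, a trimeric transcription factor that binds CCAAT boxes in DNA together with an A and a C subunit, and they form a seed-specific branch of the NF-YB family. LEC2, FUS3 and ABI3 encode B3 domain transcription factors that bind RY motifs, whose core is CATGCA. Together these genes are known for promoting embryo identity and seed maturation, including storage protein and oil accumulation, and for activating one another. Mutants in LEC1, LEC2 or FUS3 form cotyledons with leaf traits, and abi3 mutants make seeds that are insensitive to abscisic acid. LEC1 is also known for a role in keeping suspensor cells from taking on embryo fates.

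By the RefSeq annotation of TAIR10.1, LEC1 lies on the minus strand at chr1:7727577-7729649 with 2 exons and a coding sequence of 717 bases. NF-YB6 lies on the plus strand at chr5:19314778-19316169, with 2 exons in the model used and a coding sequence of 705 bases. LEC2 (minus strand, chr1:9896867-9899876, coding length 1092 bases), FUS3 (minus strand, chr3:9853828-9856212, 942 bases) and ABI3 (plus strand, chr3:8997370-9001185, 2163 bases) have 6 exons each. The FPKM files carry no coordinates, and the submitters' processing notes name TAIR10. The coding sequences of LEC1 and NF-YB6 aligned over 270 bases with 77.0% identity, and the longest run of bases their transcripts share is 15 bases. Among the B3 genes the longest aligned stretch was 240 bases at 75.8% identity, between LEC2 and ABI3, and the longest shared run was 24 bases, between FUS3 and ABI3. NF-YB6 overlaps its neighbours at both ends, by 116 bases with AT5G47660, on the same strand, and by 124 bases with TRM10, on the other.

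The promoters of LEC1, FUS3 and LEC2 are shown because the members are themselves DNA-binding factors and these genes lay on both sides of the comparison of embryo proper and suspensor described below, LEC1 and FUS3 higher in suspensor and LEC2 in embryo proper. Each line holds the 250 bases before the annotated start, 5′ to 3′ on the gene's strand, from RefSeq TAIR10.1 (LEC1 chr1:7729650-7729899, FUS3 chr3:9856213-9856462, LEC2 chr1:9899877-9900126, all on the minus strand). Capitals mark CCAAT in LEC1 and CATGCA in FUS3.
LEC1: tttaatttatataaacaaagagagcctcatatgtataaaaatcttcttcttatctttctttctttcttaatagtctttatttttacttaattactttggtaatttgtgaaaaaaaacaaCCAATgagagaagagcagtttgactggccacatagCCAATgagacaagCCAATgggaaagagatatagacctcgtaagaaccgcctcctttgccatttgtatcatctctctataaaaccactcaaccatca
FUS3: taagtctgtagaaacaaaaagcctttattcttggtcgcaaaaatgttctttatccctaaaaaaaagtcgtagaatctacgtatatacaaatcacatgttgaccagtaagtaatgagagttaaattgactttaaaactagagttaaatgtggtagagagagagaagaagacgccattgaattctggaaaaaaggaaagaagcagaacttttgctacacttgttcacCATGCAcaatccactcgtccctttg
LEC2: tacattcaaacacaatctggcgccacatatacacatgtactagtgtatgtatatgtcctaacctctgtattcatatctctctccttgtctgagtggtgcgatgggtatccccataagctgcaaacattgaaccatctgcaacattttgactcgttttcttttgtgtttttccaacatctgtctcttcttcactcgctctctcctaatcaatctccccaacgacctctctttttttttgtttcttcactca
Both strands of the 250 bases were searched for CCAAT, for CATGCA and for the G-box CACGTG, which bZIP factors bind, and no matches overlapped. The LEC1 window held 3 CCAAT boxes, which begin 131, 96 and 83 bases before the start. Of 27443 promoters of that length, 46.0% held at least 1 CCAAT and 3.2% at least 3. The FUS3 window held 1 CATGCA, beginning 25 bases before the start, against 8.43% of all promoters. A G-box stood in 6.49% of promoters and in none of the 5. No match to the 3 motifs lay in the windows of LEC2, ABI3 and NF-YB6, and the last of these lies within the neighbour AT5G47660. A match describes the letters and does not show that a factor binds.

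A library held 12611 to 15366 loci at an FPKM (fragments per kilobase of transcript, scaled to the mapped fragments of the library) of at least 1. Low values put the depth at an estimated 17.5 to 32.3 M fragments. At that depth 1 fragment over a kilobase is worth 0.031 to 0.057 FPKM. A value of 1 FPKM over a kilobase then stands for an estimated 17.5 to 32.3 fragments. Suspensor RNA was the most concentrated, with 16.1 to 26.3% of the summed FPKM in its top 10 loci, against 4.32 to 6.73% elsewhere. The labelled cell types were set against marker genes. All 6 embryo proper markers were higher in embryo proper than in suspensor, all 5 suspensor markers were lower, and those 5 were also called lower when the apical cell was set against the basal cell. The embryo proper list summed to 4048 to 5596 FPKM in embryo proper and 505 to 2187 in suspensor, where TMO5 was listed at 0 and the epidermal gene PDF1 averaged 1156 ± 638 (n = 6). The suspensor list summed to 612 to 826 FPKM in suspensor and 88.6 to 131 in embryo proper. For 4 libraries the kit wording of the labels differs. It names other amplification and library kits (Nextera XT or NEBNext) and does not say which each library used. These are suspensor Ler replicate 1 and, from the basal cell, Ler replicates 2 and 3 and Col replicate 3.

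**Figure D1:**
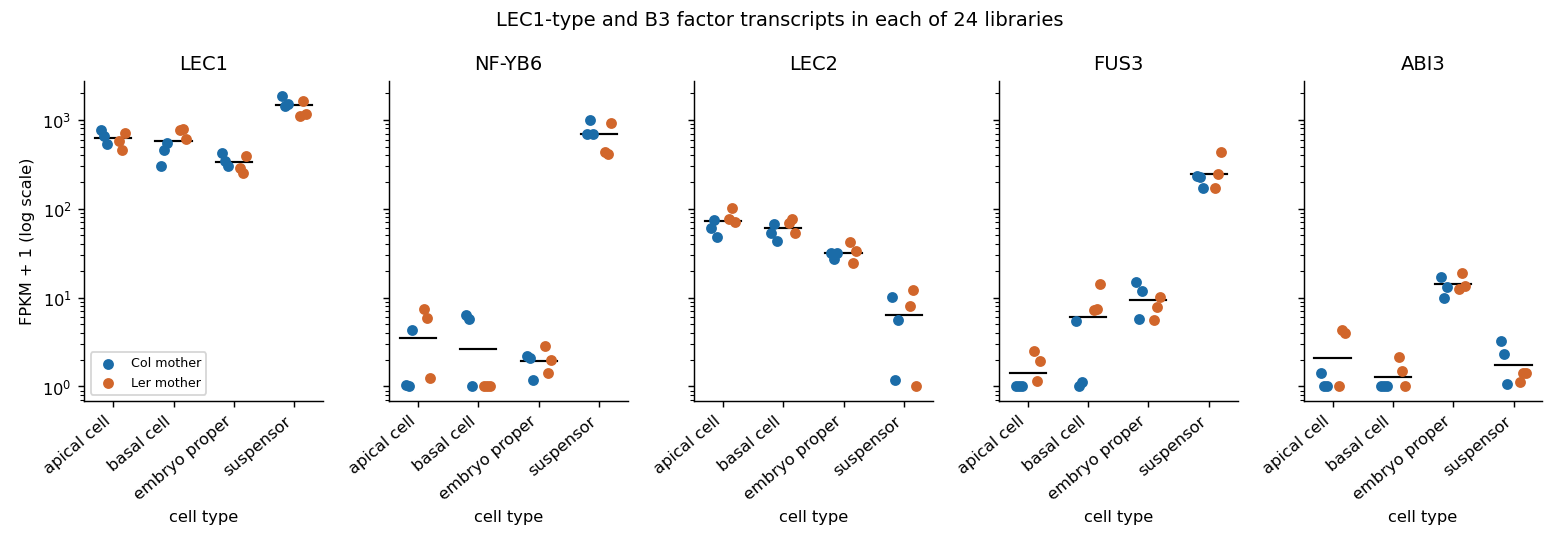
FPKM + 1 on a log axis for the 5 genes in each of 24 libraries, by cell type, with the Col mother in blue and the Ler mother in orange and the mean of 6 libraries as a line. NF-YB6 and FUS3 stand far above their other values in the 6 suspensor libraries, LEC2 is lowest there, and ABI3 is highest in the embryo proper.

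At the stage of 32 cells the 5 genes were split between the lineages. LEC1, NF-YB6 and FUS3 were higher in the suspensor, and LEC2 and ABI3 were higher in the embryo proper. Of the 5 genes, 2 were called higher and 3 lower in embryo proper against suspensor by limma at an adjusted p under 0.05. Of 18206 tested loci, 28.5% were called higher and 22.4% lower in the same comparison, so calls as such were common. All 5 genes passed the filter of FPKM at least 1 in at least 3 libraries.

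LEC1, the founding seed-type NF-YB subunit, was the most abundant of the 5 in every cell type. In the suspensor it stood at 1872, 1443 and 1499 FPKM in the Col libraries and at 1109.6, 1609 and 1169.6 in the Ler libraries. In the embryo proper it stood at 419, 340.5 and 302 in the Col libraries and at 285, 252 and 393 in the Ler libraries. Every suspensor library was above every embryo proper library. The means were 1450.2 ± 283 and 332 ± 64.7 (SD, n = 6), a ratio of 4.37. On the log2 scale LEC1 differed by -2.12 (embryo proper minus suspensor, SE 0.16, limma adjusted p = 2.32e-10). LEC1 ranked between 30 and 72 among all loci of the suspensor libraries and between 383 and 577 in the embryo proper.

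NF-YB6, the closest relative of LEC1, was abundant in the suspensor and at most 6.39 FPKM in the other 18 libraries. The suspensor libraries held 682, 996 and 695 FPKM with the Col mother and 436, 414 and 923 with the Ler mother. The embryo proper libraries held 1.22, 1.09 and 0.18 with the Col mother and 1.87, 0.41 and 0.97 with the Ler mother. The lowest suspensor library was far above the highest of the 18 other libraries, 6.39 FPKM in an apical cell library. The means were 691 ± 240.3 and 0.957 ± 0.604 (n = 6), a ratio of 722 and -8.45 on the log2 scale (SE 0.51, limma adjusted p = 4.35e-12). The overlapping neighbours of NF-YB6 did not share this pattern. AT5G47660 averaged 15.5 ± 8.66 FPKM in suspensor and 26.2 ± 2.50 in embryo proper, and TRM10 averaged 24.9 ± 18.9 and 81.6 ± 4.27 (n = 6 each).

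FUS3, a B3 factor known to restrain vegetative traits in the embryo, was also higher in the suspensor, at a lower level. Suspensor libraries held 231, 225 and 168 FPKM with the Col mother and 168, 245 and 429 with the Ler mother. Embryo proper libraries held 13.98, 4.68 and 10.8 with the Col mother and 4.59, 6.90 and 9.19 with the Ler mother. The groups did not overlap, and the highest suspensor value, in Ler replicate 3, stood apart from the other 5. The means were 244 ± 96.3 and 8.37 ± 3.70 (n = 6), a ratio of 29.2 and -4.73 on the log2 scale (SE 0.40, limma adjusted p = 1.49e-09).

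LEC2, the B3 factor known for inducing embryos from vegetative tissue when expressed there, ran the other way. Embryo proper libraries held 30.7, 26.5 and 31.1 FPKM with the Col mother and 41.2, 23.7 and 32.4 with the Ler mother. Suspensor libraries held 9.22, 0.17 and 4.58 with the Col mother and 7.05, 11.2 and 0 with the Ler mother. Each embryo proper library was above each suspensor library, and the suspensor values scattered from 0 upward. The means were 30.9 ± 6.01 and 5.37 ± 4.65 (n = 6), a ratio of 5.76 and 2.86 on the log2 scale (SE 0.48, limma adjusted p = 3.11e-05).

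ABI3, the B3 factor of abscisic acid response in seeds, was highest in the embryo proper. It stood there at 16.1, 8.93 and 11.99 FPKM with the Col mother and at 11.5, 18.0 and 12.4 with the Ler mother. The suspensor libraries held 2.24, 1.3 and 0.06 with the Col mother and 0.11, 0.40 and 0.43 with the Ler mother. No other cell type reached the lowest embryo proper library. The means were 13.1 ± 3.30 and 0.757 ± 0.852 (n = 6), a ratio of 17.4 and 3.10 on the log2 scale (SE 0.37, limma adjusted p = 2.87e-07).

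The direction of all 5 differences was the same in both crosses, and each was called in both. The log2 difference of NF-YB6 was -8.79 with the Col mother and -8.11 with the Ler mother, and that of FUS3 was -4.37 and -5.09. The log2 difference of LEC1 was -2.18 and -2.07, that of LEC2 2.90 and 2.82, and that of ABI3 2.71 and 3.49.

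Markers of surrounding seed tissue also differed between these libraries. The 13 endosperm markers summed to 102 to 275 FPKM in suspensor and to 2.66 to 20.0 in embryo proper, and of the 8 tested, 3 were called in favour of suspensor and 0 in favour of embryo proper. The 3 were the sucrose carrier SUC5 (161 ± 70.7 FPKM in suspensor against 1.5 ± 0.528), AGL62 (11.4 ± 11.4 against 0.598 ± 0.794) and ESF1.2 (24.9 ± 21.0 against 3.99 ± 4.57, n = 6 each; limma adjusted p = 9.91e-10, 0.00463 and 0.0108). ESF1.1, ZOU and PHE1 were listed at 0 in every library, and FWA was at 0 in all 6 suspensor libraries. The sum of the endosperm markers ran from 64.9 to 422 FPKM in the basal cell. The 10 seed coat markers summed to 6.24 to 43.2 FPKM in suspensor and 26.8 to 37.9 in embryo proper, with TT10, TT2, TT8, TT16 and TT1 at 0 in suspensor, and 2 of 4 tested were higher in embryo proper. The part of the endosperm and seed coat markers in the results was not tested.

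**Figure D2:**
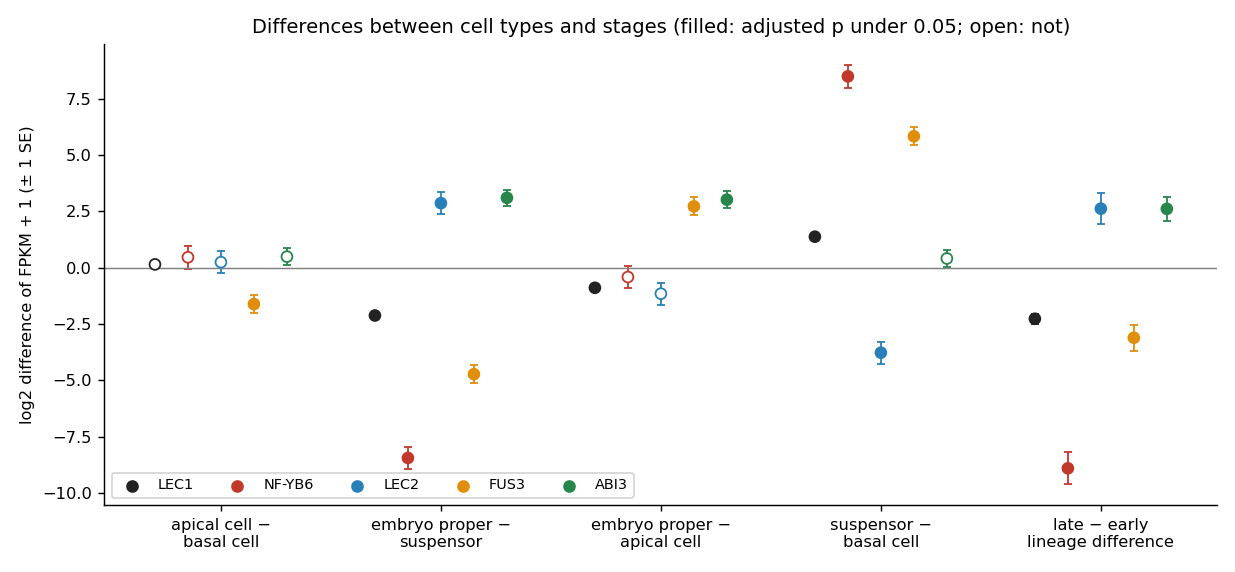
Log2 differences of FPKM + 1 with 1 SE for the 5 genes in 4 comparisons and in the change of the lineage difference with stage, filled where the limma adjusted p was under 0.05. All 5 points are filled for embryo proper against suspensor, from -8.45 for NF-YB6 to 3.10 for ABI3, and 1 of 5 for apical against basal cell.

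Between the daughters of the zygote FUS3 alone was called, lower in the apical cell. Thus 0 of 5 genes were higher and 1 was lower, against 11.8% and 12.2% of all tested loci. Of the 5 members 1 had an unadjusted limma p under 0.05 in that comparison, as did 6488 of 18206 tested loci. LEC1 and LEC2 were already present in both cells, and NF-YB6, FUS3 and ABI3 were under 14 FPKM in all 12 libraries.

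LEC1 stood at 758, 652 and 535 FPKM in the apical cell with the Col mother and at 580.2, 462 and 713 with the Ler mother. In the basal cell it stood at 303, 462 and 541 with the Col mother and at 759, 792 and 608 with the Ler mother. The cell types overlapped (617 ± 112 against 577 ± 185, n = 6). The log2 difference was 0.14 (SE 0.16, limma adjusted p = 0.566), and its sign differed between the crosses, 0.60 with the Col mother and -0.31 with the Ler mother.

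LEC2 in the apical cell stood at 60.2, 74.1 and 46.4 FPKM with the Col mother and at 75.3, 101 and 69.1 with the Ler mother. In the basal cell it stood at 52.0, 66.1 and 42.5 with the Col mother and at 67.9, 75.8 and 51.8 with the Ler mother. The ranges overlapped (71.0 ± 18.2 against 59.4 ± 12.5, n = 6), and the log2 values differed by 0.24 (SE 0.48, limma adjusted p = 0.772).

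FUS3 in the apical cell was listed at 0 in all 3 Col libraries and at 1.48, 0.14 and 0.96 FPKM with the Ler mother. In the basal cell it stood at 4.44, 0 and 0.12 with the Col mother and at 6.27, 6.37 and 13.1 with the Ler mother. The basal excess lay mainly in the Ler libraries, and the cell types overlapped. The means were 0.430 ± 0.636 and 5.06 ± 4.88 (n = 6), and the log2 values differed by -1.62 (SE 0.40, limma adjusted p = 0.00502). Within the Col cross alone the difference was -0.87 and was not called (limma adjusted p = 0.354), and within the Ler cross it was -2.37 (limma adjusted p = 0.00707).

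The endosperm markers, which summed to 6.88 to 42.7 FPKM in apical and 64.9 to 422 in basal cell libraries, were called higher in the apical cell for 1 and lower for 2 of 8, and the seed coat markers (1.47 to 3.14 against 0.67 to 14.3 FPKM) for 0 and 1 of 4. The 2 lower were SUC5 (19.3 ± 14.1 FPKM in apical against 249.6 ± 139 in basal cell) and ESF1.2 (0 in all apical libraries against 9.42 ± 11.8, n = 6 each), and the 1 higher was IKU2 (0.772 ± 0.744 against 0 in all basal libraries; limma adjusted p = 1.15e-05, 0.0105 and 0.0324). ESF1.1, ESF1.3, ZOU, MEA, PHE1 and MINI3 were listed at 0 in all libraries of both cells. The part of these markers in the FUS3 difference was not tested. Of the 6 embryo proper markers 2 were called higher and 0 lower in the apical cell.

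NF-YB6 in the apical cell was at 0.04, 0 and 3.36 FPKM with the Col mother and at 6.39, 4.86 and 0.25 with the Ler mother. In the basal cell it was at 5.29, 4.75 and 0 with the Col mother and listed at 0 in all 3 libraries with the Ler mother. These values scattered with overlap, and the log2 difference of 0.46 was not called (SE 0.51, limma adjusted p = 0.559). ABI3 was at 0.42, 0 and 0 FPKM in the apical cell with the Col mother and at 0.02, 3.28 and 2.98 with the Ler mother. In the basal cell ABI3 was listed at 0 in 4 of 6 libraries and at 1.15 and 0.50 in Ler replicates 1 and 2. Its log2 difference was 0.49 (SE 0.37, limma adjusted p = 0.368), with overlap.

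Followed along the basal lineage, from basal cell to suspensor, NF-YB6, FUS3 and LEC1 rose and LEC2 fell. Of the 5 genes 3 were called higher and 1 lower in the suspensor, against 18.9% and 26.0% of all loci. NF-YB6 changed by 8.49 on the log2 scale (SE 0.51, limma adjusted p = 1.18e-11), a ratio of means of 413. FUS3 changed by 5.83 (SE 0.40, limma adjusted p = 1.08e-10), a ratio of 48.3, and LEC1 by 1.37 (SE 0.16, limma adjusted p = 3.81e-07), a ratio of 2.51. LEC2 fell by 3.78 (SE 0.48, limma adjusted p = 1.17e-06) and stood 11.1 times higher in the basal cell. None of these 4 genes had overlapping ranges. ABI3 stayed near 0 in both (0.275 ± 0.473 and 0.757 ± 0.852 FPKM, n = 6) and was not called (log2 0.41, limma adjusted p = 0.396).

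Along the apical lineage, from apical cell to embryo proper, ABI3 and FUS3 rose and LEC1 fell. That is 2 genes called higher and 1 lower, against 10.2% and 11.7% of all loci. ABI3 rose by 3.02 on the log2 scale (SE 0.37, limma adjusted p = 1.36e-06), a ratio of means of 11.8, and FUS3 by 2.72 (SE 0.40, limma adjusted p = 1.92e-05), a ratio of 19.5. These ratios rest on apical cell means near the floor, 1.12 FPKM for ABI3 and 0.430 FPKM for FUS3. LEC1 fell by 0.89 (SE 0.16, limma adjusted p = 0.000211) and stood 1.86 times higher in the apical cell. LEC2 was at 71.0 ± 18.2 in the apical cell and 30.9 ± 6.01 in the embryo proper, and its ranges did not overlap. The log2 difference of LEC2 was -1.16 (SE 0.48) and was not called in the fit of all 24 libraries (limma adjusted p = 0.0958). Fitted with the apical cell and embryo proper libraries alone it was called (limma adjusted p = 8.8e-05), and so it was without suspensor Ler replicate 3 (limma adjusted p = 0.0177) or suspensor Col replicate 2 (limma adjusted p = 0.0441). NF-YB6 was not called (log2 -0.42, limma adjusted p = 0.644).

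The difference between lineages changed with stage for each of the 5, as tested by the difference of the differences, (embryo proper minus suspensor) minus (apical minus basal cell). All 5 were called, 2 positive and 3 negative, and 35.5% of all loci were called in that test in either direction. The change was -8.91 for NF-YB6 (SE 0.72, limma adjusted p = 2.2e-09), -3.11 for FUS3 (SE 0.57, limma adjusted p = 0.000173) and -2.27 for LEC1 (SE 0.23, limma adjusted p = 6.76e-08). It was 2.62 for LEC2 (SE 0.68, limma adjusted p = 0.00441) and 2.61 for ABI3 (SE 0.52, limma adjusted p = 0.000439). With a pseudocount of 0.1 the FUS3 change, -2.05, was not called (limma adjusted p = 0.116), nor was the LEC2 change within the Ler cross, 2.50 (limma adjusted p = 0.0618).

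Ordered by mean, LEC1 ran suspensor, apical cell, basal cell, embryo proper, and the suspensor libraries alone stood clear of their neighbour in that order. NF-YB6 ran suspensor, apical cell, basal cell, embryo proper, with overlap among the last 3. FUS3 ran suspensor, embryo proper, basal cell, apical cell, also with overlap after the first. LEC2 ran apical cell, basal cell, embryo proper, suspensor, with overlap between the daughters of the zygote and none below them. ABI3 ran embryo proper, apical cell, suspensor, basal cell, with overlap after the first.

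FPKM is scaled by transcript length, so levels of the members can be set side by side. NF-YB6 made up 32.0 ± 8.95% of the summed FPKM of LEC1 and NF-YB6 in the suspensor (SD, n = 6, range 20.5 to 44.1%). Its share was 0.466 ± 0.522% in the apical cell, 0.456 ± 0.740% in the basal cell and 0.288 ± 0.202% in the embryo proper. In no library did NF-YB6 exceed LEC1. The sum of both was 2141 ± 356 FPKM in suspensor, against 619 ± 110 in the apical cell, 579 ± 182 in the basal cell and 333 ± 64.8 in the embryo proper (FPKM, n = 6 each).

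The B3 factors changed their make-up more than their sum outside the suspensor. Their summed FPKM was 72.6 ± 19.4 in the apical cell, 64.7 ± 14.1 in the basal cell and 52.5 ± 7.28 in the embryo proper, and 250.4 ± 94.3 in suspensor (n = 6 each). LEC2 was 98.1 ± 2.13% of the sum in the apical cell and 92.2 ± 7.44% in the basal cell. In the embryo proper all 3 were present, with LEC2 at 59.2 ± 8.90%, ABI3 at 25.2 ± 6.17% and FUS3 at 15.7 ± 5.52% of the sum. In the suspensor FUS3 was 97.2 ± 2.01% of the sum and LEC2 2.49 ± 1.98%. These shares are descriptions of the levels above and carry no test of their own.

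**Figure D3:**
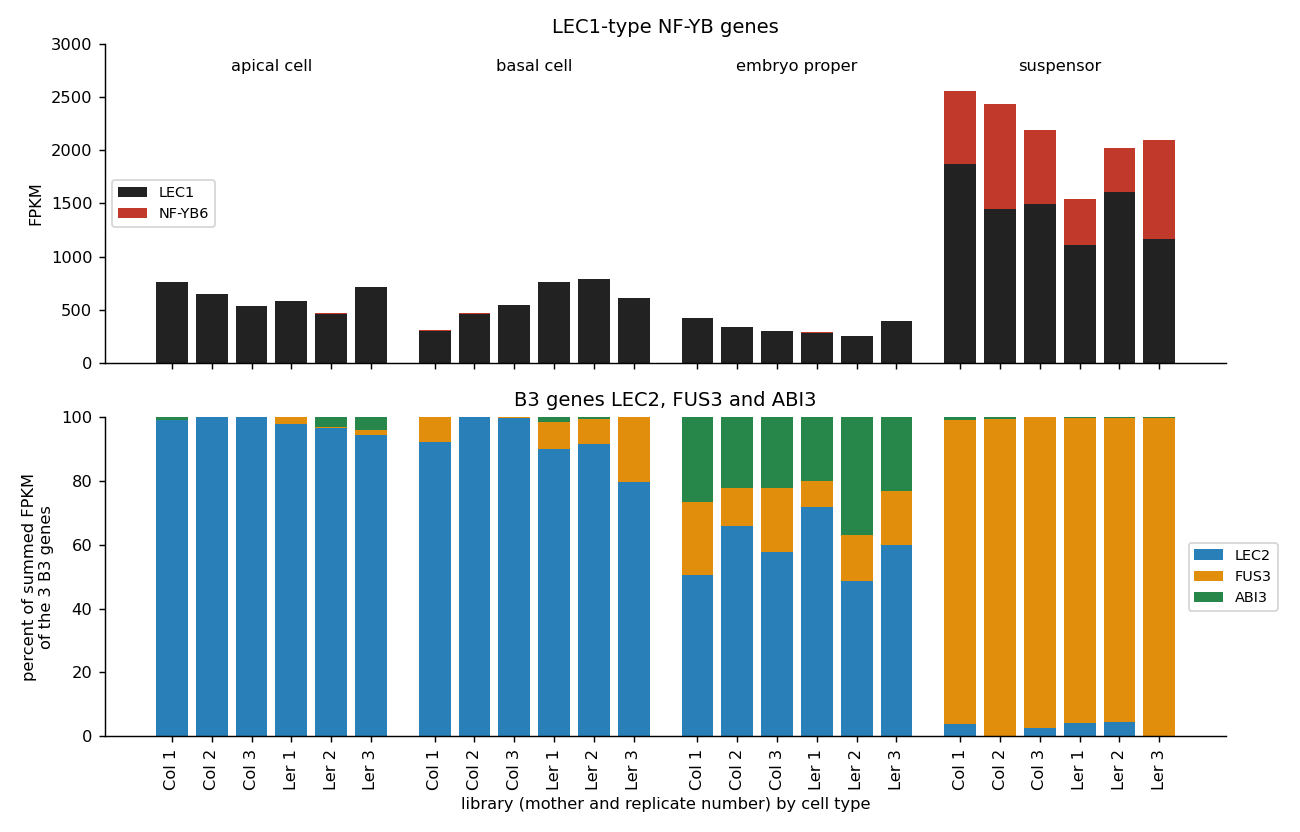
Upper bars give the FPKM of LEC1 and NF-YB6, stacked, in each library, and lower bars the percent of the summed FPKM of LEC2, FUS3 and ABI3, grouped by cell type and named by mother and replicate. NF-YB6 is visible only in the 6 suspensor libraries, at 20.5 to 44.1% of the pair, and FUS3 makes up 95.3 to 99.9% of the B3 sum there.

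The mother's accession made a difference past the threshold in the basal cell only, where 2 of 5 genes were called, both higher with the Ler mother, against 7.06% of all loci called in either direction. NF-YB6 ran the other way there, at 3.35 ± 2.91 FPKM with the Col mother and 0 in all 3 Ler libraries. It was not called (log2 1.73, SE 0.72, limma adjusted p = 0.153). FUS3 was at 1.52 ± 2.53 FPKM with the Col mother and 8.60 ± 3.94 with the Ler mother (n = 3), -2.32 on the log2 scale (SE 0.57, limma adjusted p = 0.016) with no overlap. It was not called without basal cell Col replicate 2, Col replicate 3 or Ler replicate 3 (limma adjusted p = 0.0906, 0.0637 and 0.0574). LEC1 was at 435 ± 121 and 720 ± 98.5 FPKM (n = 3), -0.76 on the log2 scale (SE 0.23, limma adjusted p = 0.0473). That call was lost in 14 of 24 fits that each left out 1 library. Of the 4 libraries with the other kit wording, 3 are basal cell libraries. Without them basal cell Ler replicate 1 stood alone against Col replicates 1 and 2, so only effect sizes are given for that fit, below. The part of the kit wording in these differences was not tested.

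In the other cell types 0 of 5 genes were called for the mother. The shares of all loci called there were 0.428% in the apical cell, 0.0% in the embryo proper and 4.2% in the suspensor, and 0.791% on average over cell types. At an unadjusted p under 0.05, limma counted 1 member in the apical cell, 0 in the embryo proper, 0 in the suspensor and 1 on average. The same count over the 18206 tested loci was 1338, 94, 3423 and 2435. In the basal cell 3 members and 3995 loci were under that unadjusted threshold. In the suspensor LEC1 averaged 1604 ± 233 FPKM with the Col mother and 1296 ± 272 with the Ler mother, with overlap (log2 0.32, SE 0.23, limma adjusted p = 0.489). The log2 difference of NF-YB6 there was 0.50 (SE 0.72, limma adjusted p = 0.783), and that of FUS3 was -0.34 (SE 0.57, limma adjusted p = 0.829). Whether the difference between mothers itself differed between cell types was not tested.

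NF-YB proteins form NF-Y together with A and C subunits, so the other NF-Y genes were set beside LEC1 and NF-YB6. Of 24, 20 were tested, and 5 were higher and 7 lower in embryo proper against suspensor (median log2 -0.37, against 0.12 over all loci). The shares of all loci called were 28.5% higher and 22.4% lower. NF-YC2, a C subunit, stood at 1373 ± 338 FPKM in suspensor and 234 ± 58.6 in embryo proper (n = 6; log2 -2.56, SE 0.23, limma adjusted p = 2.98e-09). The A subunit NF-YA6 stood at 88.5 ± 28.6 against 10.5 ± 4.11 (log2 -2.97, limma adjusted p = 1.27e-06) and NF-YA2 at 28.6 ± 4.74 against 1.47 ± 0.763 (log2 -3.61, limma adjusted p = 2.88e-06). The 7 lower in embryo proper were NF-YA2, NF-YA6, NF-YA7, NF-YC1, NF-YC2, NF-YC3 and NF-YC4, and the 5 higher were NF-YA4, NF-YA8, NF-YB8, NF-YB10 and NF-YC9. The B subunit genes NF-YB1, NF-YB2 and NF-YB3 were tested and not called. NF-YB2 stood at 13.9 ± 5.95 FPKM in embryo proper and 33.6 ± 13.7 in suspensor (log2 -1.27, SE 0.55, limma adjusted p = 0.0595). Between the daughters 2 of 20 were higher and 2 lower in the apical cell (median 0.21, against 0.03 over all loci). Of all loci 11.8% were called higher and 12.2% lower there. NF-YA3 (70.0 ± 13.1 against 24.3 ± 17.5 FPKM) and NF-YB8 (69.2 ± 21.6 against 32.6 ± 9.66) were higher in the apical cell, and NF-YB1 (48.1 ± 3.31 against 78.1 ± 12.8) was lower (limma adjusted p = 0.000313, 0.00861 and 0.00651). Along the lineages 3 were higher and 2 lower in embryo proper than in the apical cell, against 10.2% and 11.7% of all loci. In suspensor 7 were higher and 6 lower than in the basal cell, against 18.9% and 26.0% of all loci.

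**Figure D4:**
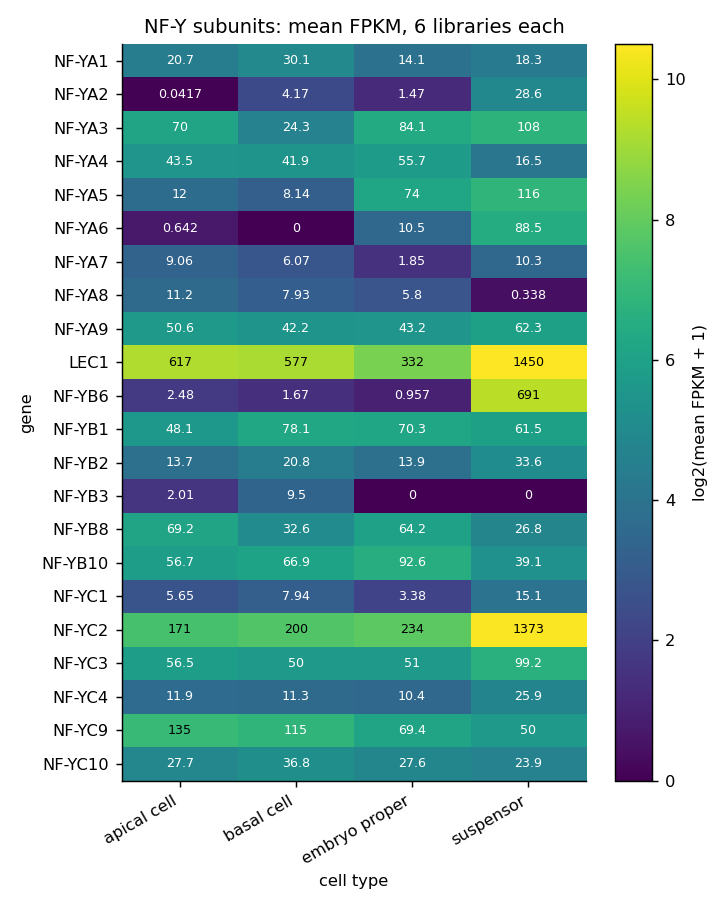
Mean FPKM of LEC1, NF-YB6 and the 20 other tested NF-Y genes in each cell type (6 libraries each), coloured by log2(mean FPKM + 1) and ordered by A, B and C subunit. LEC1 and NF-YC2 are the most abundant genes in the suspensor column, at 1450 and 1373 FPKM.

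Of 12 partner and upstream factors 9 were tested. In the apical against the basal cell 3 were higher and 0 lower (median log2 0.57), against 11.8% and 12.2% of all loci. They were ABI4, an AP2 factor of abscisic acid response (19.0 ± 5.53 against 3.27 ± 4.16 FPKM, limma adjusted p = 1.63e-05), BBM, an AP2 factor that can induce embryos (181 ± 18.8 against 84.2 ± 14.6, limma adjusted p = 0.000117), and the MADS factor AGL15 (42.8 ± 20.3 against 18.7 ± 7.33, limma adjusted p = 0.00627). In embryo proper against suspensor 2 were higher and 2 lower (median -0.34), against 28.5% and 22.4% of all loci. The bZIP gene EEL was at 12.1 ± 4.33 against 0.160 ± 0.377 FPKM and ABI4 at 12.7 ± 5.49 against 0.668 ± 1.61, while BZIP25 was lower at 16.7 ± 2.91 against 42.6 ± 13.7 (limma adjusted p = 3.32e-05, 4.01e-07 and 0.000328). EEL and ABI4 were thus on the side of ABI3. BZIP25 and BZIP10 (13.2 ± 2.58 against 31.6 ± 10.7 FPKM, limma adjusted p = 0.00101) were on the other. Toward the later stage 1 was higher and 3 lower in the apical lineage, against 10.2% and 11.7% of all loci. In the basal lineage 1 was higher and 2 lower, against 18.9% and 26.0% of all loci. BZIP67, known as a partner of LEC1 in later seed development, was listed at 0 in every library.

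The 17 repressors of the embryo programme, mostly Polycomb subunits, VAL factors and histone deacetylases, were all tested. In the apical against the basal cell 7 were higher and 0 lower (median log2 0.71), against 11.8% and 12.2% of all loci. Among the 7 were RING1A (19.6 ± 8.55 against 4.88 ± 2.29 FPKM), the trihelix repressor ASIL1 (12.3 ± 2.79 against 5.43 ± 6.71) and the methyltransferase gene CLF (13.6 ± 4.10 against 5.16 ± 3.2), with limma adjusted p = 0.000612, 0.00149 and 0.0173. In embryo proper against suspensor 6 were higher and 1 lower (median 0.76), against 28.5% and 22.4% of all loci. CLF was at 14.3 ± 3.16 against 5.88 ± 4.73 FPKM and FIE at 53.4 ± 5.41 against 29.2 ± 26.4, and BMI1A, a Polycomb ring finger gene, was the exception at 8.93 ± 2.18 against 59.9 ± 17.7 (limma adjusted p = 0.00326, 0.00294 and 1.23e-08). Over the stages 1 was higher and 2 lower in the apical lineage, against 10.2% and 11.7% of all loci. In the basal lineage 3 were higher and 2 lower, against 18.9% and 26.0% of all loci.

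Genes that the 5 factors are known to activate in later seeds were mostly under the filter on low values. Of 16 seed storage, oil body and late embryo genes, 4 passed it. In embryo proper against suspensor 0 were higher and 2 lower (median log2 -1.01), against 28.5% and 22.4% of all loci. Between the daughters 0 were called in either direction (median 0.23), against 11.8% and 12.2% of all loci. Over the stages 0 were higher and 1 lower in the apical lineage, against 10.2% and 11.7% of all loci. In the basal lineage 1 was higher and 0 lower, against 18.9% and 26.0% of all loci. The oleosin gene OLEO4 stood at 2.95 ± 2.16 FPKM in suspensor (n = 6), at 0.91 or more in each library there, and was listed at 0 in all 18 others (limma adjusted p = 1.04e-05). The albumin gene SESA3 stood at 1.23, 46.7 and 0 FPKM in suspensor with the Col mother and at 0, 0 and 10.99 with the Ler mother, and at 0 in all embryo proper libraries (limma adjusted p = 0.0478). That call rested on few libraries and was lost without suspensor Col replicate 2 or Ler replicate 3 (limma adjusted p = 0.188 and 0.166). The oleosin gene OLEO3 stood at 3.68 ± 4.80 in suspensor and 1.58 ± 1.58 in embryo proper (limma adjusted p = 0.721).

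Fatty acid and oil synthesis genes, which act earlier in the same programme, were detected. Of 10, 9 were tested, and 1 was higher and 4 lower in embryo proper against suspensor (median log2 -0.78). The shares of all loci called were 28.5% higher and 22.4% lower. The desaturase gene FAD3 was at 2.50 ± 2.32 against 55.4 ± 14.3 FPKM, BCCP2, a subunit of acetyl-CoA carboxylase, at 26.0 ± 10.6 against 160 ± 27.6, and the acyltransferase gene DGAT1 at 13.0 ± 3.62 against 44.2 ± 9.39 (limma adjusted p = 3.84e-10, 3.15e-05 and 0.00191). From basal cell to suspensor 7 were higher and 0 lower (median 1.37, against -0.15 over all loci). Of all loci 18.9% were called higher and 26.0% lower there. Between the daughters 6 were higher and 0 lower in the apical cell (median 0.80), against 11.8% and 12.2% of all loci. Among the 6 were WRI1, an AP2 factor downstream of LEC2 (25.3 ± 9.32 against 8.67 ± 6.43 FPKM, limma adjusted p = 0.00825), PKP-BETA1 and PKP-ALPHA, plastid pyruvate kinase subunits (limma adjusted p = 3.88e-06 and 0.00092). From apical cell to embryo proper 1 was higher and 1 lower, against 10.2% and 11.7% of all loci.

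Of 8 hormone and flowering genes reported as targets of these factors, 5 were tested. In embryo proper against suspensor 2 were higher and 0 lower (median log2 1.095), against 28.5% and 22.4% of all loci. TAA1, an enzyme of auxin synthesis, was at 27.8 ± 5.92 against 0.0467 ± 0.114 FPKM and YUC4, the next enzyme of that route, at 33.0 ± 9.10 against 3.19 ± 3.71 (limma adjusted p = 7.13e-10 and 6.49e-05). Between the daughters 2 were higher and 0 lower in the apical cell (median 1.09), against 11.8% and 12.2% of all loci. They were TAA1, listed at 0 in all basal cell libraries and at 10.2 ± 13.6 in the apical cell, and FLC, a repressor of flowering (55.7 ± 33.3 against 12.6 ± 4.78, limma adjusted p = 0.0137). Over the stages 2 were higher and 1 lower in the apical lineage, against 10.2% and 11.7% of all loci. In the basal lineage 1 was higher and 1 lower, against 18.9% and 26.0% of all loci. IAA30 was called higher at the later stage in both lineages (limma adjusted p = 2.34e-10 and 2.41e-11). It stood at 2.27 ± 3.56 FPKM in the apical cell and 161 ± 78.8 in embryo proper. It was listed at 0 in all basal cell libraries and stood at 118 ± 47.1 in suspensor. The 1 lower in the basal lineage was YUC4 (limma adjusted p = 0.00704).

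**Figure D5:**
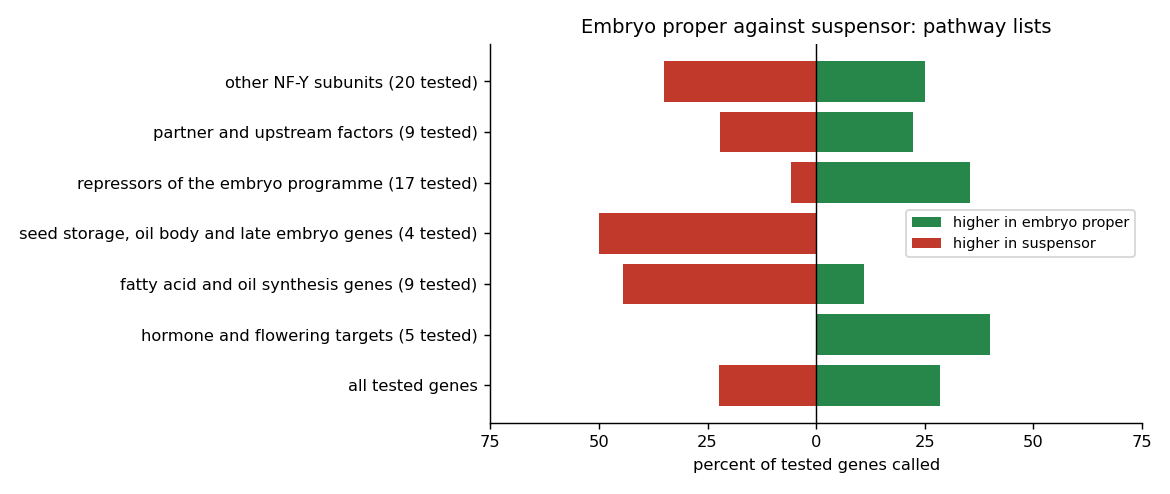
Percent of the tested genes of each pathway list that limma called at an adjusted p under 0.05 in embryo proper against suspensor, to the right where higher in embryo proper and to the left where higher in suspensor, with all tested loci in the lowest bar (28.5% and 22.4%). The fatty acid list had 1 higher and 4 lower of 9, and the repressor list 6 and 1 of 17.

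The genes most like each member were ranked by Pearson's r of log2(FPKM + 1) over the 24 libraries, which fall into 4 cell types, so that r mostly reflects differences between cell types. Among 16570 loci with a mean FPKM of at least 1, LEC1 was followed most closely by AT4G02340, an alpha/beta hydrolase (r = 0.95), AT5G20810, AT4G28410, the glyoxalase gene GLX1 and the phosphoglucomutase gene PGM3 (r = 0.92). NF-YB6 was followed by AT1G47540, a knottin (r = 0.98), the proline-rich protein gene AT3G49300, the NAC factor NAC015, the cysteine protease AT3G54940 and LHCB4.3 (r = 0.97). NAC015 stood at 41.4 ± 11.9 FPKM in suspensor and was listed at 0 in all basal cell and embryo proper libraries. FUS3 was followed by IDN2, a factor of RNA-directed DNA methylation (r = 0.95), AT3G28940, PCK1, APG1 and AT3G15090 (r = 0.94). PCK1, the phosphoenolpyruvate carboxykinase gene of gluconeogenesis, stood at 4.81 ± 3.29 and 7.88 ± 4.24 FPKM in apical and basal cell, 79.7 ± 42.5 in embryo proper and 963 ± 254 in suspensor. LEC2 was followed by AT1G43860 (r = 0.96), AT1G78190, VAMP713, SKS1 and AT1G23410 (r = 0.95). ABI3 was followed by AT1G70550 (r = 0.93), AT5G55440, ROPGEF2, AT3G62630 and the protein kinase gene AT2G18890 (r = 0.92). AT2G18890 was listed at 0 in all apical and basal cell libraries and stood at 72.7 ± 8.99 FPKM in embryo proper.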

How the data were processed

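RNA was measured in 24 libraries of hybrid embryos, 3 for each cell type and mother. The labels' protocols name SMART-Seq low-input amplification of the cDNA, and those of the 4 libraries with the other wording name other kits. The deposited FPKM values were made by the authors, 1 per locus and library; the submitters' processing notes name TopHat2 2.1.1, RSEM and TAIR10. Counts and depth are not given, so depth was estimated from the steps of low values, assuming fragments of 200 bases. Sample labels of 2-celled embryos were followed where the series text has a 1-cell stage.

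Values were taken as log2(FPKM + 1), which understates changes of weakly expressed genes. The test was limma 3.58.1 under R 4.3.3, with lmFit, contrasts.fit and eBayes with trend, on the 18206 of 32399 loci that reached 1 FPKM in 3 or more libraries, in 1 fit of 8 group means, with Benjamini-Hochberg adjustment over all tested loci and a threshold of 0.05. The exact permutation test planned for members that fail the filter was not needed. The fit was tested on simulated data. Promoters and positions were read from RefSeq TAIR10.1 with Biopython 1.88, and Python 3.11.15 made the tables and plots.

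The members and the 10 lists beside them, with 121 genes, were chosen with earlier results of these data known. Members are named in full. From each pathway list, up to 3 called genes with the largest log2 difference were named in each of 2 comparisons (embryo proper against suspensor, apical against basal cell), provided the higher cell type averaged 10 FPKM or more, or the 2 highest if no gene met this. For likeness, 5 genes were named per member. Other list genes were named after their values were seen. Alternatives changed the pseudocount, filter, scaling, spread, libraries, cross, kit wording and replicate number.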

Additional observations from a re-analysis of the deposited data

Results flagged for a closer look

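The difference between the lineages changed between the stage of 2 cells and that of 32 cells for each of the 5 genes, by a test of the difference itself (limma, adjusted over all loci). The change in the log2 difference was -2.27 for LEC1, -8.91 for NF-YB6, -3.11 for FUS3, 2.62 for LEC2 and 2.61 for ABI3. FUS3 was not called in that test with a pseudocount of 0.1 (-2.05, limma adjusted p = 0.116), nor LEC2 within the Ler cross (2.50, limma adjusted p = 0.0618).

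FUS3 in suspensor Ler replicate 3, at 428.95 FPKM, lay apart from the other 5 suspensor libraries, whose highest value was 245 FPKM. Chance flags about 1 in 20 groups. That library also had LEC2 listed at 0 and NF-YB6 at 923 FPKM. Its 10 most abundant loci took 19.7% of the summed FPKM, within the range of the suspensor libraries. The difference of FUS3 between embryo proper and suspensor was called in all 24 fits that left out 1 library.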

How the results depend on the processing

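All 5 differences between embryo proper and suspensor kept direction and call under the 15 alternatives and the 24 fits without 1 library (195 of 195 values). Their size moved over the alternatives: -9.53 to -6.80 for NF-YB6, -5.09 to -4.19 for FUS3 and -2.47 to -2.03 for LEC1. It ran from 1.92 to 3.84 for LEC2 and from 1.65 to 4.54 for ABI3. From basal cell to suspensor NF-YB6 ran from 6.71 to 10.8, and from apical cell to embryo proper FUS3 ran from 1.26 to 4.84. Over the 5 cell type and stage comparisons 957 of 970 values held, and over the comparisons of mothers 863 of 915. Calls were lost for the FUS3 change of lineage difference with a pseudocount of 0.1 (-2.05), for LEC2 in that test within the Ler cross (2.50), and for FUS3 in apical against basal cell within the Col cross (-0.87). LEC2 in embryo proper against apical cell was gained with a pseudocount of 5 (-1.06), library weights (-1.03) and the compared cell types alone (-1.16); without 1 library it ranged from -1.25 to -1.05. In the basal cell, the call for LEC1 between mothers was lost with a pseudocount of 0.1, no filter, no trend, the compared cell types alone or the replicate block (-0.76 each), median-ratio scaling (-0.80), the kit covariate (-0.75) and without the 4 libraries (-1.02), and ranged from -0.93 to -0.52 without 1 library. The call for FUS3 there was lost with a pseudocount of 5 (-1.09) and the basal cell alone (-2.32). The FUS3 difference ranged from -3.11 to -1.89 without 1 library. Without the 4 libraries of the other kit wording, 1 basal cell library with a Ler mother remained. The differences were then -1.02 for LEC1 and -1.64 for FUS3, and no call is given for them. NF-YB6 there was gained with library weights (2.26; 1.26 to 2.59 without 1 library).

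Uncalled values that changed sign were, between mothers in suspensor, LEC2 (0.18 with a pseudocount of 0.1 and with quantile normalization, 0.22 without the 4 libraries), LEC1 (-0.084) and ABI3 (-0.21), both with quantile normalization, and LEC1 on average with median-ratio scaling (0.029). So did NF-YB6 in apical against basal cell (-0.054 with the kit covariate, -0.999 in the Col cross) and in embryo proper against apical cell (0.091, Col cross), LEC1 in apical against basal cell (-0.31, Ler cross) and ABI3 in suspensor against basal cell (-0.18, Ler cross). Without 1 library, values between mothers ranged from -0.0030 to 0.31 for LEC1 in apical cell, -0.43 to 0.11, -0.31 to 0.079 and -0.37 to 0.018 for NF-YB6, LEC2 and ABI3 in embryo proper, -1.29 to 0.71 and -0.65 to 0.020 for LEC2 and FUS3 in suspensor, and -0.064 to 0.041 for LEC1 on average. The share of NF-YB6 in embryo proper was 0.595% with 1 FPKM added to each gene. Members that failed the filter in a fit of fewer libraries gave no value there. Scaling moved the median of all loci from -0.15 to -0.035 for suspensor against basal cell (median-ratio) and from 0.03 to 0.14 for apical against basal cell (TPM). The causes were not tested.

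The number of loci called ranged over alternatives from 2532 to 6715 for apical against basal cell (4364 as reported), 2250 to 6873 for embryo proper against apical cell (3984), and 3823 to 7189 for the change with stage (6455). For mothers it ranged from 64 to 138 (78) in apical cell, 451 to 5044 (1286) in basal cell, 0 to 174 (0) in embryo proper, 0 to 1496 (765) in suspensor and 111 to 352 (144) on average. Without 1 library the last 5 ranged from 28 to 98, 553 to 1691, 0 to 4, 546 to 1487 and 62 to 306. Replicate numbers were not taken as pairs: the labels name no shared batch, and same-numbered libraries correlated between -0.035 and 0.099 across cell types and between -0.178 and 0.303 across crosses. That 15 of 24 libraries correlated best with their own number is a hint from the data, not the design. Apart from the basal cell value of LEC1, the replicate block changed no call of a member. Many values of NF-YB6, FUS3 and ABI3 in the apical and basal cell lay near or under 1 FPKM and scattered between libraries. The cause of that scatter was not tested.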
